A study of Mus musculus with 6 samples.

Results

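Myc and 9 genes for amino acid transporters of the plasma membrane were examined in CD8 T cells of OT-I origin, from CD73 KO and WT. The 10 genes are Myc, Slc7a5, Slc3a2, Slc1a5, Slc38a1, Slc38a2, Slc7a1, Slc7a6, Slc7a11 and Slc1a4. They were taken by symbol from the deposited table of 49671 genes, and all 10 had a row. The set was chosen by earlier CD73 KO against WT values of these same libraries, the low p of Slc7a5 among them, so the genotype values of the 10 genes are a description and support nothing beyond themselves.

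Each genotype had 3 libraries of total RNA from splenic CD8 T cells of OT-I mice, which carry a T cell receptor transgene specific for SIINFEKL, a peptide of ovalbumin. Nt5e encodes CD73, an ectoenzyme that makes adenosine from AMP outside the cell. The CD73 KO cells and the WT cells had the same culture, a daily dose of the peptide at 10 ng/mL for 5 days with IL-7 and IL-15 at 5 ng/mL each and replating after 48 hours, which was meant to drive them into exhaustion, and live cells were then sorted. The medium of both genotypes was RPMI with serum, added non-essential amino acids and β-mercaptoethanol. The labels name neither the knockout allele nor the animals or cultures behind the libraries of a genotype, so the p-values reflect only how much these libraries vary, and that variation may be technical.

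MYC is a transcription factor that pairs with MAX on DNA motifs called E-boxes and drives cell growth, ribosome production and nutrient uptake when T cells are activated. Slc7a5 encodes the light chain and Slc3a2 the heavy chain (CD98) of the heterodimer that imports leucine and other large neutral amino acids, and activated T cells need this import to keep the growth kinase complex mTORC1 active. When amino acids run short, a separate route through the transcription factor ATF4 raises many transporter and synthesis genes by way of a composite DNA element in their promoters.

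Total counts were 10202128 to 19382950 in the CD73 KO libraries and 6934150 to 13039990 in the WT libraries. Levels are given as CPM (counts scaled to library size, here with TMM factors), on which 3 counts, taken as the detection floor, equalled 0.160 to 0.427 CPM. Nt5e had 69, 128 and 88 counts in CD73 KO libraries and 290, 49 and 263 counts in those labelled WT. The library labelled WT replicate 2, at 5.22 CPM, lay inside the CD73 KO range of 3.67 to 8.47 CPM, so it goes against its label at the targeted gene. A gene total does not tell in which part of the gene the reads fell. The 5 CD8 T cell markers (Cd8a, Cd8b1, Cd3e, Cd3g, Trac) summed to 3161 to 3420 CPM in CD73 KO libraries and 2783 to 2977 CPM in WT libraries. Markers of B, myeloid, erythroid and CD4 T cells and of granulocytes summed to at most 6 counts per library in each list, while NK cell markers summed to 8 to 70 counts, stromal or endothelial markers to 10 to 31 and dendritic cell markers to 4 to 23.

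Sequence was examined at the start sites of these genes because ATF4 and MYC act through short DNA elements. RefSeq promoter windows on GRCm38.p6, 250 bases before to 50 after a start, were matched by symbol for 6 of the 10 genes (Slc3a2, Slc38a2, Slc7a1, Slc7a6, Slc7a11 and Slc1a4) and not for Myc, Slc7a5, Slc1a5 and Slc38a1. The letters TGATGNAA, or TTNCATCA on the other strand, stand for the core of the ATF4 composite element. They were present in Slc7a11, which holds the pattern on each strand, and in Slc1a4. The sequences are shown because these are also the 2 genes of lowest level among the 10. Each is written 5′ to 3′ on the gene's own strand with the element in capitals, and Asns, the classical amino acid response gene for asparagine synthetase, is given for comparison.
Slc7a11 upstream, minus strand, chr3:50443614-50443863: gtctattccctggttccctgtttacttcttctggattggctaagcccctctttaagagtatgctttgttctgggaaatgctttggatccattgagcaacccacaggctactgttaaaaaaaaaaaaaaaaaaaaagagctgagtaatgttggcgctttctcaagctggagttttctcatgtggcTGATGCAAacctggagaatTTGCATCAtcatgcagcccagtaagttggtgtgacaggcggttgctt
Slc1a4 across the start site, minus strand, chr11:20332699-20332728: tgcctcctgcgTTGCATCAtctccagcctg
Asns just upstream of the start site, minus strand, chr6:7693214-7693243: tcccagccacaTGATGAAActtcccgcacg

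Among all 32851 windows, 3.97% held the ATF4 letters and 0.07% held them at least 2 times, as Slc7a11 does. By gene the share was 4.51% of 27025, against 2 of the 6 genes here, 9 of 26 genes in a list of ATF4 amino acid response genes and 5 of 12 cytosolic aminoacyl-tRNA synthetase genes. The E-box letters CACGTG, which read the same on both strands, were in no window of the 6 genes, in 14 of 37 MYC growth target genes and in 8.09% of all genes. A match is a run of letters and not a measured binding site, and a window without it says only that the letters are not there.

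Levels were compared between genes per kilobase of annotated exon, since long transcripts yield more counts. Over the 6 libraries Slc1a5, which encodes an exchanger for glutamine and other small neutral amino acids, was highest at 75.6 ± 8.52 CPM per kb (SD, n = 6). Myc followed at 59.2 ± 15.4, Slc7a5 at 53.6 ± 12.6 and Slc3a2 at 53.4 ± 6.85 CPM per kb. The gaps between Myc, Slc7a5 and Slc3a2 were smaller than their SD, so their order is not resolved, and Slc1a5 was above Myc in 4 of 6 libraries.

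A middle tier held the sodium-coupled neutral amino acid carriers and the carriers of cationic amino acids. On the per-kilobase scale Slc38a2 stood at 21.3 ± 3.50, Slc7a6 at 19.0 ± 1.79, Slc38a1 at 18.0 ± 1.69 and Slc7a1 at 15.5 ± 2.08 CPM per kb (SD, n = 6). The steps from Slc38a2 to Slc7a6 and from Slc7a6 to Slc38a1 were within the SD, and Slc3a2 was above Slc38a2 in 6 of 6 libraries. Dividing by the length of the principal transcript alone moved Slc38a1 to the fifth place at 42.7 CPM per kb and Slc38a2 to the sixth at 40.5, and it put Slc3a2 (67.0) above Slc7a5 (56.5) and Slc7a1 (24.8) above Slc7a6 (23.2). Slc1a4, for an exchanger of alanine, serine, cysteine and threonine, was far below at 1.64 ± 0.490 CPM per kb.

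**Figure D1:**
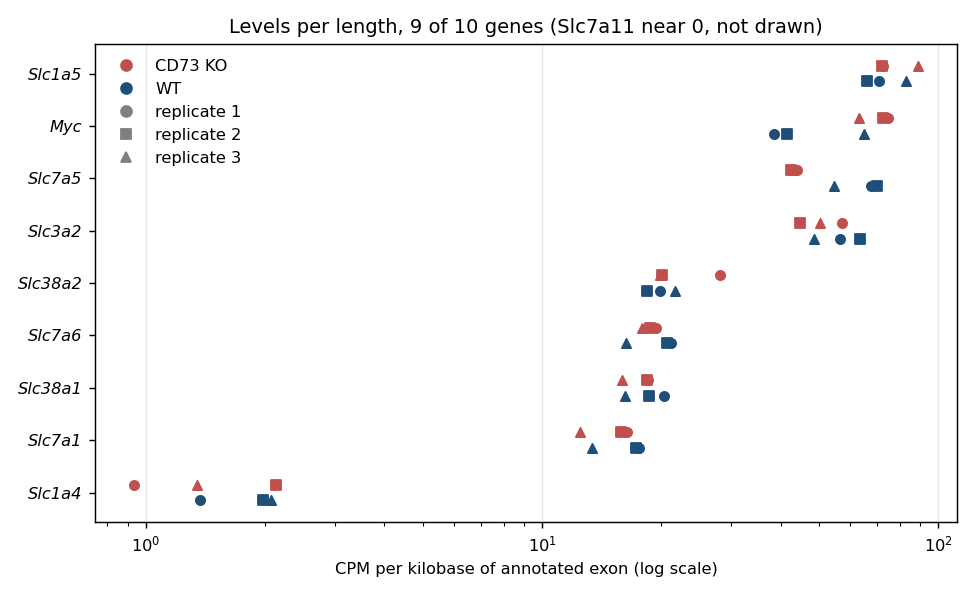
Level of 9 of the 10 genes in each library, in CPM per kilobase of annotated exon on a log axis, with CD73 KO points above WT points for each gene and 1 marker shape per replicate number. Slc1a5, Myc, Slc7a5 and Slc3a2 lie between 38.5 and 89.0 CPM per kb, and Slc1a4 between 0.935 and 2.14.

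Slc7a11 was not detected above the floor. It encodes the light chain that joins Slc3a2 to import cystine in exchange for glutamate. It had 0, 1 and 0 counts in CD73 KO and 0, 1 and 1 counts in WT. All 6 values lay under 3 counts, so the gene was not tested and no fold change is given. The other 2 light chains of Slc3a2 among these genes, Slc7a5 and Slc7a6, had 524 to 3217 counts per library.

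Between genotypes, 0 of the 9 tested genes passed edgeR's quasi-likelihood test after Benjamini-Hochberg adjustment over all 12242 tested genes, where 0.0572% of genes passed (0.0408% higher and 0.0163% lower in CD73 KO). At an unadjusted p under 0.05 there were 2 of the 9, Myc and Slc7a5, against 9.64% of all tested genes (5.75% higher and 3.89% lower). Only at Slc7a5 did the genotypes not overlap, against 15.2% of all tested genes (7.59% higher and 7.60% lower). These genes were proposed with that contrast in view, and nothing is read from these shares. DESeq2, run on all genes with counts, called 1 of the genes (Slc7a5), and 2 were called by edgeR when low counts were not filtered (Myc and Slc7a5).

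Myc (ENSMUSG00000022346, chromosome 15, 61985391 to 61990374, mm10) had 202, 196 and 172 CPM in CD73 KO, against 105, 113 and 176 CPM in WT. The CD73 KO libraries were close together, while WT replicate 3 stood within the CD73 KO range and the other WT libraries lay below it. Means were 190 ± 16.3 CPM in CD73 KO libraries and 131 ± 39.2 CPM in WT libraries (SD, n = 3 each), a log2 fold change of 0.54 ± 0.18 (SE; edgeR adjusted p = 0.418). Without WT replicate 3 the log2 fold change was 0.80 (adjusted p = 0.0571), and without the library labelled WT replicate 2 it was 0.44 (adjusted p = 0.999). Exact 95% Poisson intervals, which cover counting error only, ran from 167 to 187 CPM in WT replicate 3 and from 99.2 to 110 CPM in WT replicate 1, so the difference between these WT libraries was larger than counting error.

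Slc7a5 (ENSMUSG00000040010, chromosome 8, 121881150 to 121907694) lay on the other side. It had 163, 157 and 159 CPM in CD73 KO, against 250, 260 and 202 CPM in WT. Every CD73 KO library was below every WT library, and WT replicate 3 was again the WT library nearest to CD73 KO. The means were 160 ± 3.09 CPM in CD73 KO libraries and 237 ± 30.7 CPM in WT libraries (SD, n = 3 each), a log2 fold change of -0.57 ± 0.12 (SE; edgeR adjusted p = 0.187), 30th of all tested genes by p. The adjusted p was 0.807 without the library labelled WT replicate 2 (log2 fold change -0.51) and 0.0571 without WT replicate 3 (-0.67). In bulk RNA, fewer cells that express a gene and less RNA of it per cell cannot be told apart.

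**Figure D2:**
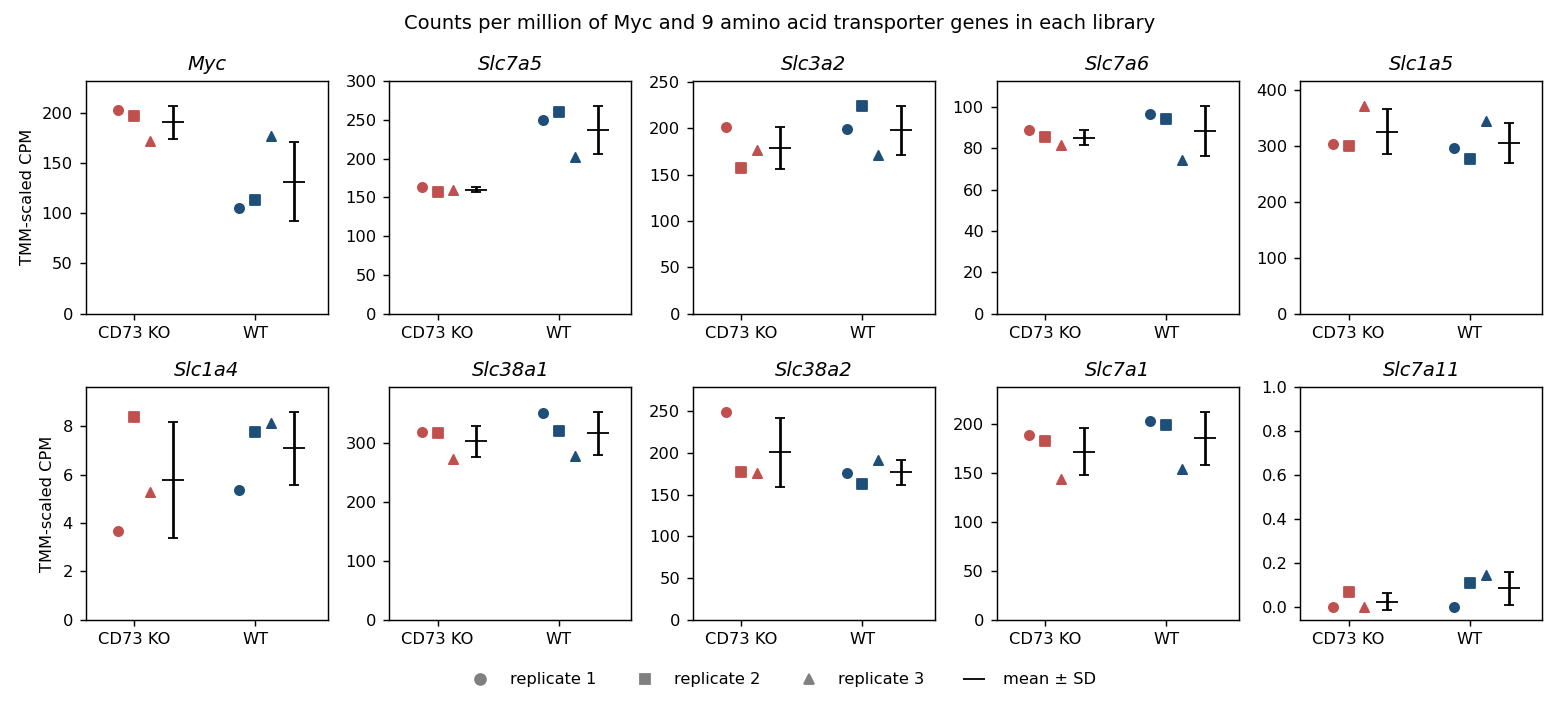
TMM-scaled CPM of each gene in each library, CD73 KO left and WT right, with 1 marker shape per replicate number and the mean ± SD beside the points. Slc7a5 is the gene whose genotypes do not overlap, at 157 to 163 CPM in CD73 KO and 202 to 260 CPM in WT, and Slc7a11 lies at or below 0.142 CPM in every library.

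The heavy chain differed less between genotypes than its light chain did. Slc3a2 (chromosome 19, 8706882 to 8723369) had 202, 158 and 177 CPM in CD73 KO, against 199, 224 and 171 CPM in WT, and the genotypes overlapped. Its log2 fold change was -0.15 ± 0.13 (edgeR adjusted p = 0.738). The ratio of Slc7a5 to Slc3a2, each per kilobase, was 0.769, 0.949 and 0.856 in CD73 KO, against 1.20, 1.11 and 1.13 in WT. All 3 CD73 KO ratios were below all 3 WT ratios. The side of 1 on which a ratio falls depends on the lengths used, while the order of the libraries does not.

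Slc7a6 (chromosome 8, 106168857 to 106198706), the light chain of an exchanger that trades cationic for neutral amino acids, had 88.7, 85.7 and 81.4 CPM in CD73 KO, against 96.6, 94.3 and 74.6 CPM in WT. Its genotypes overlapped, with a log2 fold change of -0.06 ± 0.12 (edgeR adjusted p = 0.902). The ratio of Slc7a5 to Slc7a6 per kilobase was 2.27, 2.26 and 2.41 in CD73 KO, against 3.19, 3.40 and 3.34 in WT. In WT this ratio differed less between libraries than Slc7a5 did, and WT replicate 3 did not stand apart from the other WT libraries by it. In CD73 KO the ratio differed more between libraries than Slc7a5 did, which varied 1.04-fold there. Slc7a5, Slc7a6 and Slc7a11 together, per kilobase, were 1.11, 1.37 and 1.21 times Slc3a2 in CD73 KO and 1.57, 1.43 and 1.46 times Slc3a2 in WT.

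**Figure D3:**
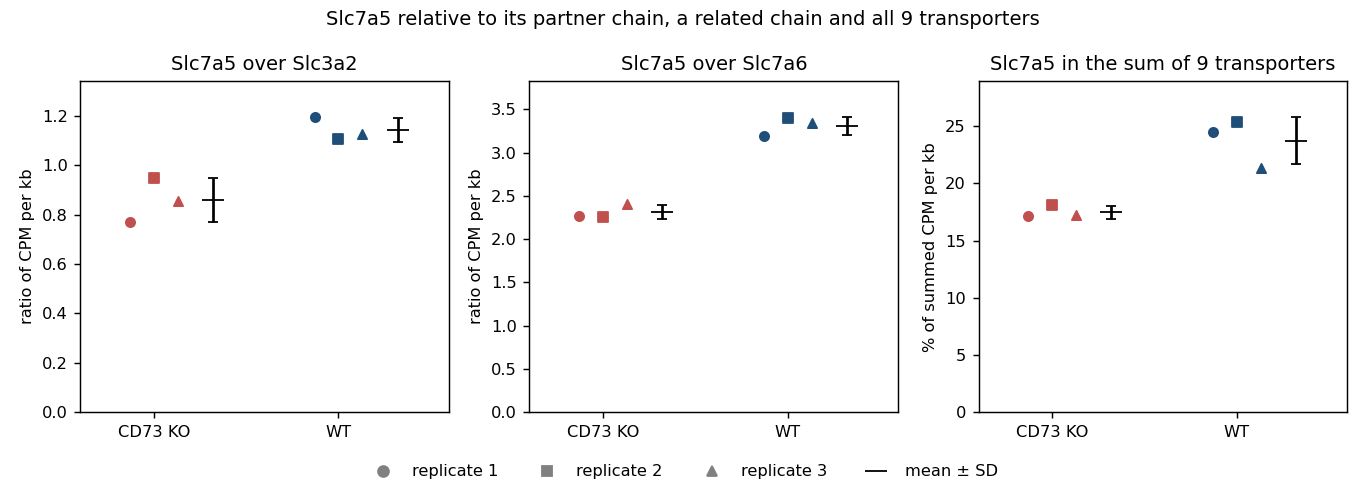
Ratio of Slc7a5 to Slc3a2, ratio of Slc7a5 to Slc7a6, and share of Slc7a5 in the sum of the 9 transporters, all from CPM per kilobase, in each library with the mean ± SD (CD73 KO left, WT right). Slc7a5 made up 17.1% to 18.1% of that sum in CD73 KO and 21.4% to 25.3% in WT. Since Slc7a5 enters all 3 panels, they are not independent of its level.

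The transporters as a pool were close in level. The 9 genes summed to 1517, 1386 and 1387 CPM in CD73 KO, against 1576, 1544 and 1426 CPM in WT, ranges that overlap. Per kilobase the sum was 247 ± 11.7 in CD73 KO and 269 ± 11.8 CPM per kb in WT (SD, n = 3 each), and its ranges overlapped too. The share of Slc1a5 in that sum was 31.6% ± 3.78 in CD73 KO and 27.4% ± 4.45 in WT, and that of Slc3a2 was 20.5% ± 1.62 in CD73 KO and 20.8% ± 2.00 in WT (SD, n = 3 each).

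The glutamine and small neutral amino acid carriers overlapped between genotypes. Slc1a5 (chromosome 7, 16781340 to 16798274) had 303, 301 and 371 CPM in CD73 KO, against 296, 276 and 345 CPM in WT, with a log2 fold change of 0.09 ± 0.12 (edgeR adjusted p = 0.846). It was highest in replicate 3 of each genotype. Slc38a1 (chromosome 15, 96571418 to 96642913), a sodium-coupled carrier of glutamine, had 319, 317 and 274 CPM in CD73 KO, against 351, 321 and 279 CPM in WT. Its log2 fold change of -0.06 ± 0.12 (edgeR adjusted p = 0.883) was well inside the spread, and replicate 3 was the lowest library of each genotype.

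Slc38a2 (chromosome 15, 96687392 to 96699730), a related carrier that amino acid shortage is known to induce, had 249, 177 and 176 CPM in CD73 KO, against 176, 163 and 191 CPM in WT. CD73 KO replicate 1 stood above the other 5 libraries, which ran from 163 to 191 CPM. The log2 fold change was 0.19 ± 0.15 (edgeR adjusted p = 0.695) and was -0.01 without CD73 KO replicate 1. Slc1a4 (chromosome 11, 20302180 to 20332713) had 69, 127 and 55 counts in CD73 KO and 69, 73 and 57 counts in WT, or 3.67, 8.39 and 5.29 CPM in CD73 KO, against 5.37, 7.78 and 8.12 CPM in WT. At these counts its libraries differed 2.28-fold within CD73 KO, more than the genotype means did.

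Slc7a1 (chromosome 5, 148327410 to 148399904), which encodes the main carrier of arginine and lysine in many cells, had 188, 182 and 144 CPM in CD73 KO, against 203, 199 and 154 CPM in WT. In each genotype replicate 3 was lowest, and the log2 fold change between genotypes was -0.11 ± 0.14 (edgeR adjusted p = 0.823). For 8 of the 9 tested genes the highest library of a genotype exceeded its lowest by a larger fold than the genotype means differed, and Slc7a5 was the exception (1.04-fold within CD73 KO and 1.28-fold within WT, against 1.49-fold between means).

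Slc38a1, Slc7a1 and Slc7a6 varied together over the libraries. Centred on each gene's own mean, their log2 levels differed by a root mean square of 0.06 between Slc38a1 and Slc7a6, 0.07 between Slc38a1 and Slc7a1 and 0.10 between Slc7a1 and Slc7a6, over 6 libraries. Slc3a2 was 0.12 from Slc7a6 and 0.23 from Slc7a5, and of the tested genes here it was the nearest to Slc7a5. Myc was 0.67 from Slc7a5, the widest distance among the 36 pairs, and the pair deviated to the same side in 1 of 6 libraries, WT replicate 3. These 2 genes have the highest and the lowest log2 fold change of the set, so their distance largely restates the genotype contrast by which the set was chosen. Slc1a5 deviated to the opposite side from Slc38a1 and from Slc7a1 in all 6 libraries. Replicate 3 was the lowest library of both genotypes, or the highest of both, at 4 of the 9 genes (Slc1a5, Slc38a1, Slc7a1 and Slc7a6), against 31.0% of all tested genes. That measure was chosen after the values were seen.

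**Figure D4:**
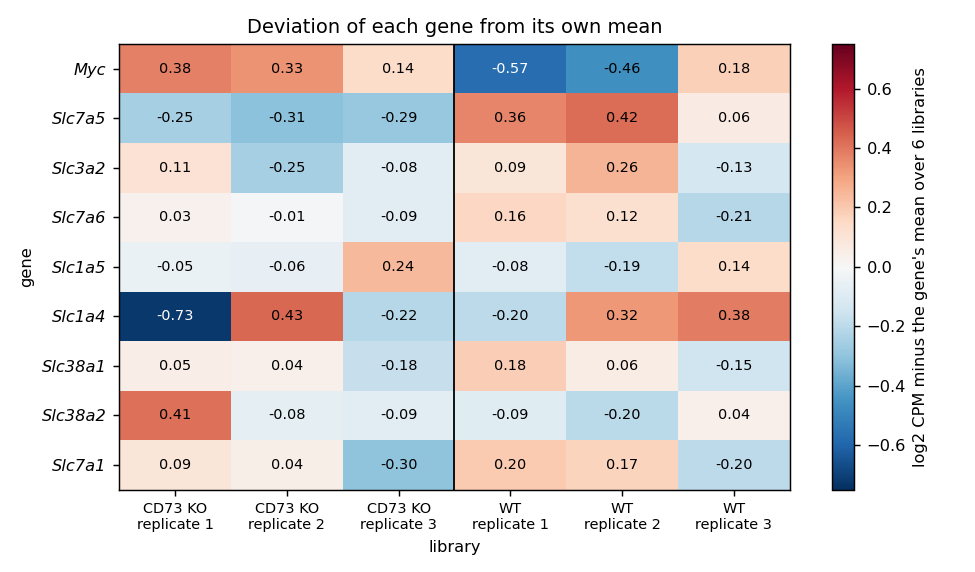
Log2 CPM of each tested gene in each library minus the gene's mean over the 6 libraries (red above, blue below), with the CD73 KO libraries left of the line. Myc runs from 0.14 to 0.38 in CD73 KO and from -0.57 to 0.18 in WT, and Slc7a5 from -0.31 to -0.25 in CD73 KO and from 0.06 to 0.42 in WT.

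Genes whose pattern over the 6 libraries was nearest to these were found by the same distance among 9152 protein-coding genes with a mean of at least 5 CPM. Nearest to Myc were Spry1, a feedback inhibitor of receptor signalling (0.09), Pik3ip1, a membrane protein that restrains PI3 kinase (0.10), and Patj, a polarity scaffold (0.11). Myc itself deviated from its mean by a root mean square of 0.38. Nearest to Slc7a5 were Ptgr1, a prostaglandin reductase (0.08), Naaa, a lysosomal amidase (0.09), and Zmat3, an RNA-binding zinc finger protein (0.09), where Slc7a5 deviated by 0.30. All 6 have log2 fold changes that did not pass the test, with adjusted p of 0.288 to 0.557 by edgeR. The distance takes in the genotype contrast, so a near gene shares the sign of the fold change by the way it was found. A relation in function was not tested.

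MYC works with a network of partners and rivals, and none of its 11 tested members passed the test. In that list 9 had a positive log2 fold change, with a median of 0.25 against 0.01 over all tested genes. Max, the obligate partner, had 134 ± 23.2 CPM in CD73 KO libraries and 115 ± 9.99 CPM in WT libraries (SD, n = 3 each; log2 fold change 0.22 ± 0.14). Mlxip, which encodes a nutrient-sensing relative (MondoA), had 123, 110 and 110 CPM in CD73 KO, against 95.3, 81.8 and 92.0 CPM in WT (0.35 ± 0.11; edgeR adjusted p = 0.368). Mxd3, of the MXD family that competes with MYC for MAX, had 36.9 ± 7.91 CPM in CD73 KO libraries and 28.8 ± 0.585 CPM in WT libraries (0.35 ± 0.16), and Mga, another MAX partner, had 0.26 ± 0.14. At Mlxip and Mxd3, 2 of the 11, the genotypes did not overlap, near the 15.2% of all tested genes.

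Growth genes that MYC is known to drive lay on the side opposite to Myc. Of 44 listed targets in ribosome production, nucleotide synthesis and related growth, 42 had a negative log2 fold change, against 47.7% of all tested genes, and the median was -0.21. None passed the adjusted test, 16 had an unadjusted p under 0.05, all lower in CD73 KO, against 3.89% of all tested genes lower by that rule, and in 18 every CD73 KO library was below every WT library, against 7.60% of all tested genes. Hspd1, the mitochondrial chaperonin, had 400, 561 and 483 CPM in CD73 KO, against 626, 694 and 732 CPM in WT (-0.51 ± 0.13; edgeR adjusted p = 0.305). Utp20, of the ribosome assembly machinery, and Cad, the first enzyme of pyrimidine synthesis, had -0.44 ± 0.12 and -0.40 ± 0.12. Odc1, a classical MYC target of polyamine synthesis, had 417 ± 50.2 CPM in CD73 KO libraries and 495 ± 46.5 CPM in WT libraries, with overlap.

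The list summed to 12558, 12884 and 12594 CPM in CD73 KO, against 14137, 14945 and 15352 CPM in WT. WT replicate 3 had the highest sum, and Ldha alone had 2112, 2269 and 2815 CPM in WT replicates 1 to 3. Highly expressed genes weigh most in such a sum, and its relation to Myc was not tested. Without the library labelled WT replicate 2, 43 of the 44 were negative and 8 had an unadjusted p under 0.05, where 4.48% of all tested genes did in either direction. Nucleotide synthesis genes, of which this list holds some, had already been seen lower in CD73 KO in these libraries, so the list is no independent evidence of that direction.

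Aminoacyl-tRNA synthetases, which load amino acids onto tRNAs in the cytosol, were lower in CD73 KO at all 20 genes by the sign of the fold change, with a median log2 fold change of -0.26. None passed the adjusted test, and 11 had an unadjusted p under 0.05, all lower in CD73 KO, against 3.89% of all tested genes lower by that rule. In 14 of the 20 every CD73 KO library was below every WT library, against 7.60% of all tested genes. Gars, for glycine, had 248, 266 and 268 CPM in CD73 KO, against 336, 349 and 334 CPM in WT (-0.38 ± 0.09; edgeR adjusted p = 0.287), and Hars and Nars, for histidine and asparagine, had -0.29 ± 0.10 and -0.35 ± 0.12. The list summed to 3463 ± 119 CPM in CD73 KO libraries and 4036 ± 64.4 CPM in WT libraries (SD, n = 3 each). Library size alone, without TMM factors, left 19 of 20 negative, leaving out single libraries left 18 to 20, and without the library labelled WT replicate 2 it was 20, with 6 at an unadjusted p under 0.05, where 4.48% of all tested genes were in either direction.

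**Figure D5:**
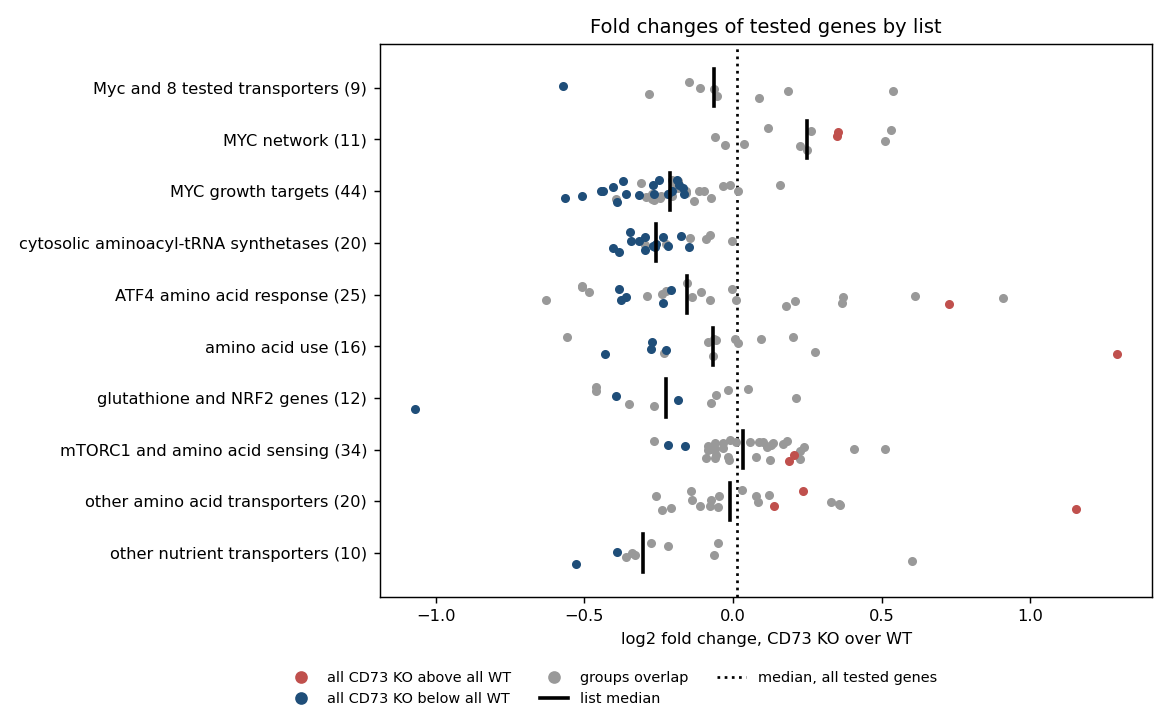
Log2 fold change (CD73 KO over WT) of each tested gene in 10 lists, with the number tested in parentheses, the list median as a bar and the median of all tested genes as a dotted line. Red and blue points are genes whose genotypes do not overlap. Aminoacyl-tRNA synthetases and MYC growth targets lie to the left of the dotted line with medians of -0.26 and -0.21, and the MYC network lies to the right with 0.25.

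The ATF4 amino acid response was mixed. Of 25 tested genes 17 were negative and 8 positive (median -0.15), none passed, and 8 had an unadjusted p under 0.05, 6 lower and 2 higher, against 3.89% lower and 5.75% higher among all tested genes. Atf4 itself had 319, 210 and 234 CPM in CD73 KO, against 285, 305 and 251 CPM in WT, with overlap (-0.14 ± 0.15). The serine synthesis genes Phgdh and Psph had -0.38 ± 0.12 and -0.38 ± 0.14, and Xpot, which exports tRNAs from the nucleus, had -0.36 ± 0.12 (edgeR adjusted p = 0.387). Asns had 32.1, 50.8 and 41.7 CPM in CD73 KO, against 49.9, 52.6 and 71.9 CPM in WT (-0.48 ± 0.19; edgeR adjusted p = 0.482), and the genotypes overlapped.

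Of genes of mTORC1 and amino acid sensing, 18 of 34 were positive and 16 negative, with a median of 0.03, and 1 had an unadjusted p under 0.05, against 9.64% of all tested genes. That gene was Sesn3, an inhibitor of mTORC1, with 172 ± 15.5 CPM in CD73 KO libraries and 129 ± 24.7 CPM in WT libraries (0.41 ± 0.14; edgeR adjusted p = 0.413). Mtor had 62.0 ± 3.62 CPM in CD73 KO libraries and 65.3 ± 6.95 CPM in WT libraries. Sec13, of the GATOR complex and the secretory coat, had -0.22 ± 0.12, and Tsc1, a brake on mTORC1, had 0.24 ± 0.14.

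Among genes of amino acid use, 1 of 16 passed the test, against 0.0572% of all tested genes. Bckdhb, a subunit of the complex that breaks down leucine, isoleucine and valine, rose to 14.2 ± 1.29 CPM in CD73 KO, against 5.77 ± 0.567 CPM in WT (SD, n = 3 each; log2 fold change 1.29 ± 0.19, edgeR adjusted p = 0.0495). Its adjusted p was above 0.05 in 10 of 15 alternatives, and over all 15 the log2 fold change ran from 1.21 to 1.35. Without the library labelled WT replicate 2 the adjusted p was 0.297. By library Bckdhb had 12.8, 14.3 and 15.4 CPM in CD73 KO, against 6.07, 5.11 and 6.12 CPM in WT. The library labelled WT replicate 2 thus lay with the other WT libraries at this gene, which was called with that library counted as WT. Bckdhb lies on chromosome 9, as Nt5e does, and whether its difference goes with that position was not tested. The other subunits of the complex, Bckdha and Dbt, had 0.09 ± 0.13 and 0.01 ± 0.17.

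Glutathione and NRF2 genes had 10 of 12 negative values, against 47.7% of all tested genes, with a median of -0.22, and none passed. An unadjusted p under 0.05 was found for 4, all lower in CD73 KO, against 3.89% of all tested genes lower by that rule. In 3 every CD73 KO library was below every WT library, against 7.60% of all tested genes. Gsr, glutathione reductase, had 66.3, 54.5 and 63.2 CPM in CD73 KO, against 87.6, 86.3 and 67.5 CPM in WT (-0.39 ± 0.13; edgeR adjusted p = 0.400). Txnrd1, thioredoxin reductase, had 129 ± 15.9 CPM in CD73 KO libraries and 177 ± 46.5 CPM in WT libraries (-0.46 ± 0.19). Gpx1, a peroxidase, had -0.35 ± 0.15, and at both genes the genotypes overlapped. Nfe2l2, which encodes NRF2, had 0.21 ± 0.16.

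Of 34 other amino acid transporter genes, 20 were tested, 10 had 0 counts in all 6 libraries and 4 had at most 12 counts in any library. None of the 20 passed, with 10 positive and 10 negative values and a median of -0.01. Highest per kilobase were Slc6a6, the taurine transporter, at 24.9 ± 3.08 and Slc38a10 at 23.6 ± 2.93 CPM per kb (SD, n = 6), slightly above the means of the middle tier. Slc43a2, another leucine carrier that needs no heavy chain, had 3.70 ± 0.497 CPM per kb, far less than Slc7a5, and a log2 fold change of 0.12 ± 0.15. Slc7a8, the closest relative of Slc7a5 in function, had at most 9 counts in any library. Slc38a9, a lysosomal arginine sensor, had 18.5 ± 1.52 CPM in CD73 KO libraries and 14.6 ± 3.07 CPM in WT libraries (0.36 ± 0.18), Slc38a10 had -0.21 ± 0.12 and Ctns, which exports cystine from lysosomes, had 0.24 ± 0.17.

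Without the library labelled WT replicate 2, the MYC network had 9 of 11 positive values, the ATF4 list had 18 of 25 negative, and none of the lists held a gene past the adjusted test. Transporters of other nutrients were mostly on the same side as Slc7a5, with 9 of 10 negative, against 47.7% of all tested genes. Their median was -0.30, and none passed the test. Slc16a1, a lactate and pyruvate transporter, had 127, 123 and 109 CPM in CD73 KO, against 150, 170 and 151 CPM in WT (-0.39 ± 0.11; edgeR adjusted p = 0.331). The zinc transporter gene Slc39a10 had -0.53 ± 0.17. At 2 of the 10, Slc16a1 and Slc39a10, every CD73 KO library was below every WT library. Among all tested genes 7.60% were lower by that rule, and 15.2% did not overlap in either direction. Tfrc, the transferrin receptor, had 911 ± 178 CPM in CD73 KO libraries and 1169 ± 98.9 CPM in WT libraries (-0.36 ± 0.14), and the glucose transporter gene Slc2a1 had 102 ± 11.2 CPM in CD73 KO libraries and 129 ± 28.3 CPM in WT libraries (-0.34 ± 0.16), both with overlap.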

How the data were processed

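The authors deposited raw counts of reads per gene for 6 libraries, made from total RNA with a strand-preserving kit, per the labels' protocols. The submitters' processing notes name fastp, HISAT2, featureCounts and mm10. The sources used here give no versions, strand setting or annotation. No exon of the 10 genes overlaps another gene of GENCODE M21 (GRCm38, the assembly of mm10), from which positions and exon lengths come. A blastn search for stretches of at least 200 bases and 95% identity in other genes found some for Slc7a11 alone. They were alignments of 373 to 375 bases with Tuba1a, Tuba1b, Tuba1c and several gene models, and not copies of the whole transcript.

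Symbols were found for 49326 identifiers. In edgeR 4.0.16, filterByExpr with a minimum count of 10 and a minimum total of 15 left 12242 genes, which were tested with glmQLFTest (TMM, robust dispersions, legacy fit) in R 4.3.3. The threshold was an adjusted p of 0.05 over all tested genes, and standard errors were taken as the absolute log2 fold change over the root of the F statistic. Log2 levels used a prior count of 2. The fit was also run on simulated data, and no result given here rests on that run.

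The genes, lists and alternatives were chosen with earlier results of these data known. Named were the 10 genes, list genes past the threshold or else the 3 of smallest p at a mean of at least 5 CPM, a few preset genes and the 3 nearest in pattern to Myc and to Slc7a5. Bckdha, Dbt, Slc6a6 and Slc7a8 were named after their values were seen. Alternatives were RLE factors, library size alone, no filter, at least 1 CPM in 3 libraries, dispersions without robust estimation, the newer edgeR 4 fit, a replicate block, each library left out, DESeq2 1.42.0 and limma-voom (limma 3.58.1). Transcript length and lists without a library were added after seeing the data.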

Additional observations from a re-analysis of the deposited data

How the results depend on the processing

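With 7 genes called between genotypes by edgeR, single libraries left out gave 4 to 8, DESeq2 gave 98 and no filter on low counts gave 298. Of the 9 tested genes described here 0 were called with any library left out. DESeq2 called 1, Slc7a5 (adjusted p = 0.00517), and no filter called 2, Myc (0.00345) and Slc7a5 (0.00144). The cause was not tested. Adjusted p over the 15 alternatives ran from 0.00345 to 0.999 for Myc and from 0.00144 to 0.807 for Slc7a5, whose log2 fold changes stayed positive (0.39 to 0.80) and negative (-0.67 to -0.51). With single libraries left out, 5 small log2 fold changes turned sign. They ran from -0.0071 to 0.27 for Slc38a2 (negative without CD73 KO replicate 1), from -0.019 to 0.18 for Slc1a5 (negative without CD73 KO replicate 3), from -0.15 to 0.013 for Slc38a1 (positive without CD73 KO replicate 3 or WT replicate 1), from -0.16 to 0.0099 for Slc7a6 (positive without WT replicate 1) and from -0.019 to 0.24 for Slc43a2 (negative without WT replicate 3). Deviations of same-numbered libraries over all tested genes had correlations of 0.15, -0.17 and 0.01. The best match of a library did not follow its number, so the numbers were not taken as pairs. Total counts nevertheless fell from replicate 1 to replicate 3 in both genotypes. Replicate 3 was also the lowest library of both genotypes, or the highest of both, at 31.0% of all tested genes. The labels number the libraries of both genotypes alike without saying whether they pair. With 3 libraries per genotype these correlations cannot exclude pairing or a shared batch. With the replicate block 5 genes and 0 of the 9 were called. Depth limits Slc7a11 among these genes. Slc1a4, at 55 to 127 counts per library, had a larger counting error relative to its level than the other tested genes.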
